A study of Arabidopsis thaliana with 6 samples.

Results

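The TEMPRANILLO and RAV genes of Arabidopsis thaliana were described in a qRT-PCR profile of transcription factor genes during the induction of somatic embryos. The 4 genes, TEM1 (AT1G25560, also EDF1), TEM2 (AT1G68840, also EDF2 and RAV2), EDF3 (AT3G25730) and RAV1 (AT1G13260, also EDF4), were taken by their gene codes from 1880 rows of threshold cycles, whatever their values. Cultured explants were immature zygotic embryos of the late cotyledonary stage, placed on E5 solid medium with 5 µM of the synthetic auxin 2,4-D. Wild-type Col-0 and the tan1-2 allele of tanmei, a mutant that the labels describe as non-embryogenic, were each sampled at 0, 5 and 10 d of culture, which gave 6 groups. Both genotypes received the same medium, so culture time and exposure to 2,4-D cannot be told apart, and the mutant was represented by 1 allele.

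Proteins of the RAV family carry an AP2 domain and a B3 domain, both of which bind DNA, and they act mostly as repressors of transcription. TEM1 and TEM2 are best known for delaying flowering: they repress FT, which encodes the mobile floral signal, as well as gibberellin biosynthesis genes. Under the name ETHYLENE RESPONSE DNA BINDING FACTOR, abbreviated EDF, the 4 genes are also known to be induced by ethylene downstream of EIN3, and RAV1 is known to restrain growth and to act in responses to abscisic acid and in leaf senescence.

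For each gene and group 1 threshold cycle (Ct) was on hand, the authors' mean over 3 replicates. A Ct lower by 1 stands for a transcript level higher by 1 on the log2 scale, provided that each PCR cycle doubles the product. Levels are given here as the median Ct of the block of rows that holds the gene minus the Ct of the gene, so that a positive level lies above the block median. All 4 genes lay in the first of 5 such blocks of equal size. Without replicate values no spread and no test could be had, and differences are set against 2-fold (1 on the log2 scale) and 10-fold (3.32), the sizes that the study's methods name. Between 1748 and 1784 rows had a Ct below 40 in a group. Primer pairs differ in efficiency, so levels were compared between groups for 1 gene and not between genes. In explants, a higher level in each cell cannot be told apart from a larger share of cells that express the gene.

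Many gene codes of the deposited table carried a profile other than that listed for the same gene in the study's supplement, and the codes of the 4 genes were therefore checked. For this check an offset for each block and group, fitted to the same data, was first removed. A shift shared by the rows of a block was thus left out of the distances. Only 75 of 732 codes with a listed profile lay within 1 cycle of it (root mean square over the 6 groups). Among rows with the AP2/EREBP family label, to which the 4 genes belong, the number was 58 of 71. For TEM1, TEM2, EDF3 and RAV1, the row under the code was the closest of all 1880 rows to the listed profile, at 0.217, 0.359, 0.229 and 0.237 cycles. The next closest row lay at 0.457 cycles for TEM1, 0.651 for TEM2, 1.05 for EDF3 and 0.796 for RAV1.

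TEM1, a repressor of FT, was detected in every group, at levels above the block median, although 2 of these (Col-0 at 0 and 5 d) fell just below a median taken over rows with a Ct below 35. In Col-0 its Ct was 25.29 at 0 d, 24.28 at 5 d and 22.51 at 10 d, which gave levels of 1.03, 0.99 and 1.92. In tanmei the Ct was 21.76 at 0 d, 22.44 at 5 d and 22.86 at 10 d, with levels of 3.35, 2.73 and 2.48. All 3 tanmei levels lay above all 3 Col-0 levels, although in raw Ct the mutant sample at 10 d was lower than the Col-0 sample of that time, and the highest was that of the uncultured mutant explant. Over culture the levels of the genotypes drew together, from 2.32 apart at 0 d to 0.56 at 10 d. The range of TEM1 over the 6 groups was 2.37, the smallest of the 4 genes.

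TEM2, the close relative of TEM1 that also represses FT, had a Ct of 27.02, 25.13 and 23.60 in Col-0 at 0, 5 and 10 d. The corresponding levels were -0.69, 0.13 and 0.83, so that TEM2 was lowest in the freshly isolated wild-type explant. In tanmei its Ct was 25.05, 22.64 and 22.73 and its level 0.06, 2.54 and 2.61. The 2 cultured mutant samples stood apart from the other groups, whose levels all lay below 1. The levels at 5 and 10 d in tanmei differed by 0.07, far less than 2-fold.

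EDF3, an ethylene-responsive member of the family, varied most. In Col-0 its Ct was 30.78 at 0 d, 23.94 at 5 d and 21.84 at 10 d, and its level was -4.46, 1.33 and 2.59. In tanmei its Ct was 23.33, 21.47 and 21.34, with levels of 1.79, 3.71 and 4.00. The freshly isolated Col-0 explant was low by itself, and the remaining 5 groups lay between 1.33 and 4.00. From the lowest to the highest group the level of EDF3 differed by 8.45, or 350-fold.

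RAV1, which restrains growth, had the same order of groups as TEM2, except that the 2 cultured mutant samples changed places. Its Ct in Col-0 was 29.66 at 0 d, 25.43 at 5 d and 24.55 at 10 d, and its level was -3.34, -0.17 and -0.12. In tanmei the Ct was 25.59, 22.85 and 23.43 and the level -0.48, 2.33 and 1.91. The 2 cultured mutant samples were highest, and the uncultured wild-type explant was again lowest. RAV1 spanned 5.67 on the log2 scale, or 50.8-fold. The plot of levels by time shows these courses side by side.

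**Figure D1:**
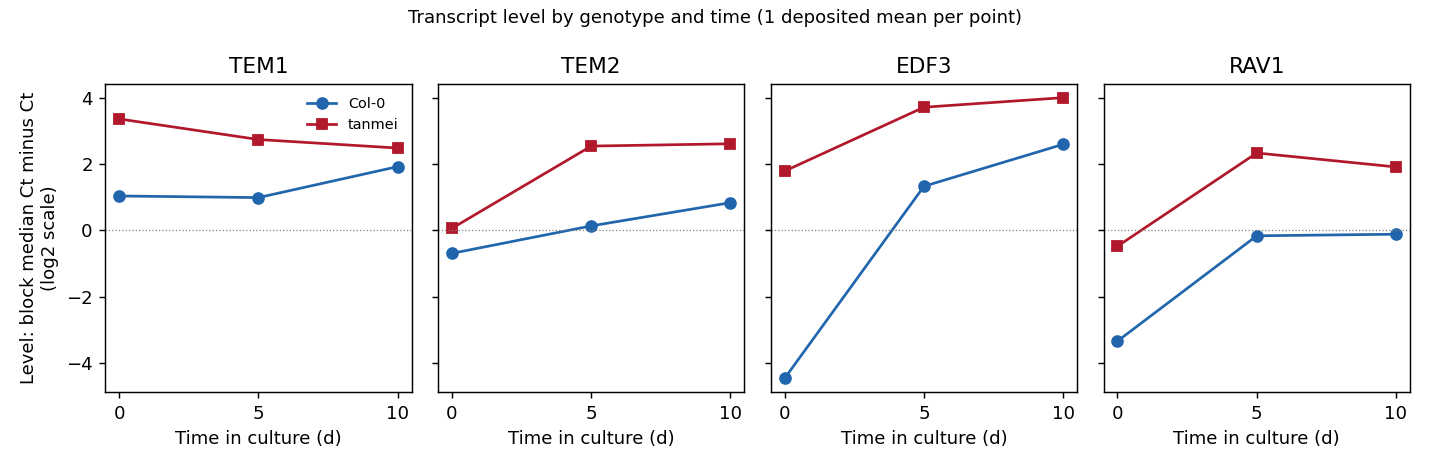
Levels of TEM1, TEM2, EDF3 and RAV1 (vertical axis, block median Ct minus Ct on the log2 scale) against days in culture (horizontal axis) in Col-0 (circles) and tanmei (squares). Each point is 1 deposited mean of 3 replicates, so no error bar can be drawn, and in each panel the mutant point lies above the wild-type point at every time (in raw Ct, TEM1 at 10 d was the exception).

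The first comparison asked how the genes changed in wild-type explants as these turned embryogenic. At 5 d EDF3 was higher than at 0 d by 5.78 (55.0-fold) and RAV1 by 3.17 (9.01-fold), whereas TEM2 was higher by 0.83 (1.77-fold) and TEM1 differed by -0.05. Hence 2 of the 4 genes were higher by at least 2-fold, where 28.9% of all 1822 rows with a Ct in either group and 28.2% of AP2/EREBP rows were. EDF3 was past 10-fold, as were 11.1% of all rows, and lay far out in that distribution, with only 69 rows showing a larger increase. At 10 d EDF3 was higher than at 0 d by 7.05 (132-fold), RAV1 by 3.22 (9.32-fold), TEM2 by 1.53 (2.88-fold) and TEM1 by 0.88. That made 3 genes past 2-fold, against 29% of all rows and 30.1% of AP2/EREBP rows, and TEM1 was also past 2-fold under each of the other 5 centrings, at 1.12 to 2.78. EDF3 was past 10-fold, as 12.8% of all rows were, and 44 of 1828 rows exceeded EDF3. Between 5 and 10 d EDF3 increased by a further 1.27, the single member past 2-fold in that interval (17.4% of all rows), while RAV1 moved by 0.05.

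The size of these increases depended on how the groups were scaled, because the first block as a whole had lower Ct values in cultured Col-0 explants: its median level was higher by 1.06 at 5 d and by 1.90 at 10 d before centring. In raw Ct at 5 d the differences were 1.02 for TEM1, 1.89 for TEM2, 6.85 for EDF3 and 4.24 for RAV1, and all 4 genes were then higher by 2-fold, as were 35.7% of all rows in raw Ct. Scaled to ubiquitin, the study listed TEM1 as higher by more than 2-fold in Col-0 at 5 d and as steadily expressed in tanmei. It counted TEM1 among the genes whose expression it called specific to somatic embryogenesis, which the block-centred difference of TEM1 at 5 d does not show. Differences among the 4 genes did not depend on the scaling, since they shared a block and any centring cancelled between them. At 5 d in Col-0 EDF3 had gained 5.83 on TEM1, 4.95 on TEM2 and 2.61 on RAV1, and RAV1 had gained 3.22 on TEM1. The plot of changes under each centring shows the lines of the 4 genes moving in parallel.

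**Figure D2:**
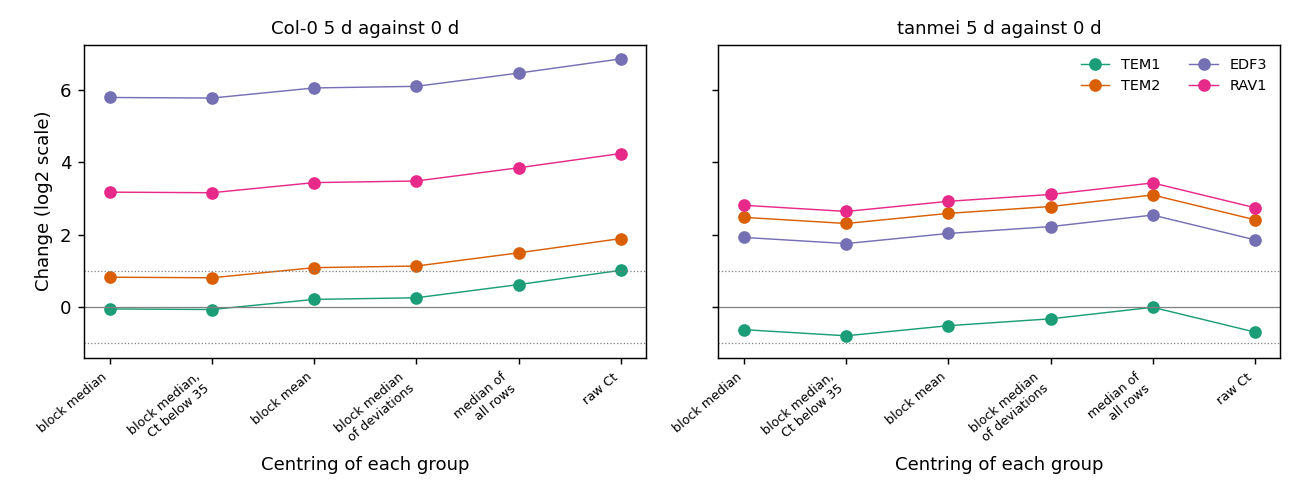
Change from 0 d to 5 d (vertical axis, log2 scale) of the 4 genes in Col-0 (left) and tanmei (right) under 6 ways of centring the groups (horizontal axis), with dotted lines at 2-fold. EDF3 lies highest in Col-0 under all 6 and RAV1 highest in tanmei, while TEM1 in Col-0 ran from -0.06 with the median of rows with a Ct below 35 to 1.02 in raw Ct.

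The same comparison in tanmei showed another order of the genes. At 5 d RAV1 was higher than at 0 d by 2.81 (7.01-fold), TEM2 by 2.48 (5.57-fold) and EDF3 by 1.92 (3.79-fold), and TEM1 differed by -0.62. Thus 3 of the 4 genes were higher by 2-fold or more, where 28.7% of all rows and 28.5% of AP2/EREBP rows were. At 10 d the changes from 0 d were 2.55 for TEM2, 2.39 for RAV1, 2.21 for EDF3 and -0.88 for TEM1, again 3 genes past 2-fold against 31.1% of all rows and 31.9% of AP2/EREBP rows. From 5 to 10 d none of the 4 changed by 2-fold, where 35.6% of all rows did. RAV1 differed by -0.42, EDF3 by 0.29, TEM1 by -0.26 and TEM2 by 0.07. TEM2, EDF3 and RAV1 thus stood within 0.34 of each other in their total change over 10 d, and TEM1 lay more than 3 below each of them.

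Changes were then set against each other between genotypes. At 5 d the change of EDF3 was larger in Col-0 than in tanmei by 3.86, and that of TEM2 was smaller by 1.65. For RAV1 the changes differed by 0.36 and for TEM1 by 0.57, both less than 2-fold. In raw Ct these 5 d differences were 4.99 for EDF3, 1.70 for TEM1, 1.49 for RAV1 and -0.52 for TEM2, so that EDF3 was the one gene with a difference past 2-fold of the same sign under both scalings. At 10 d the Col-0 change exceeded that of tanmei by 4.84 for EDF3, 1.76 for TEM1 and 0.83 for RAV1, and it was smaller for TEM2, with a difference of -1.02. Differences of this kind were common among all rows: at 5 d 506 of 1847 rows changed at least 2-fold more in Col-0 and 458 at least 2-fold more in tanmei, and in raw Ct the counts were 962 and 243. In raw Ct the 10 d difference for TEM2 had the other sign, 1.10, and those of the other members were 6.96 for EDF3, 3.88 for TEM1 and 2.95 for RAV1.

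Comparison of the genotypes at 1 time asked what set embryogenic and non-embryogenic explants apart. At 0 d, before culture, EDF3 was lower in Col-0 than in tanmei (difference -6.24), as were RAV1 (-2.86) and TEM1 (-2.32), and TEM2 differed by -0.75. The count of 3 genes lower by 2-fold or more stood beside 24.6% of all rows and 28.2% of AP2/EREBP rows. EDF3 was past 10-fold, as 6.33% of all rows were, and only 16 of 1802 rows had a difference more negative than that of EDF3. At 5 d all 4 genes were lower in Col-0, by similar amounts: -1.75 for TEM1, -2.40 for TEM2, -2.38 for EDF3 and -2.50 for RAV1, where 24.1% of all rows and 33.3% of AP2/EREBP rows were lower by as much as 2-fold. TEM2, EDF3 and RAV1 were separated by no more than 0.11 at that time. At 10 d TEM2 (-1.77), EDF3 (-1.40) and RAV1 (-2.03) were past 2-fold and TEM1 (-0.56) was not, beside 28.7% of all rows and 36.8% of AP2/EREBP rows.

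**Figure D3:**
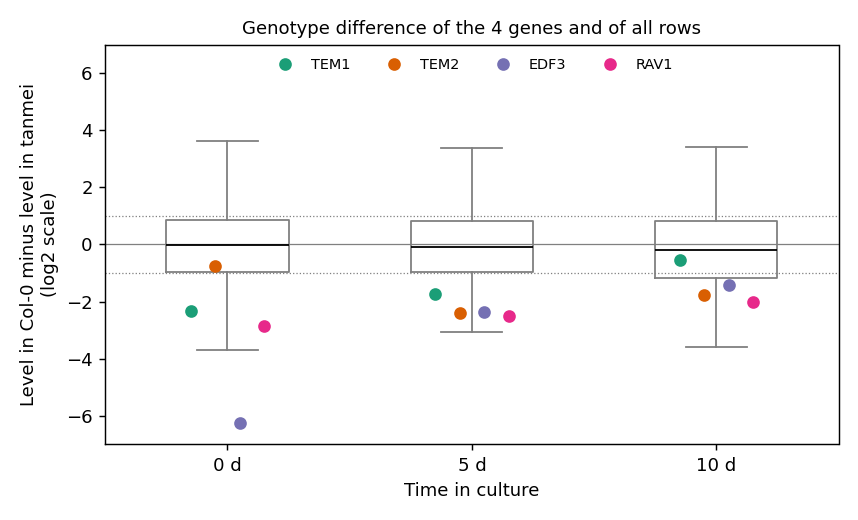
Level in Col-0 minus level in tanmei (vertical axis, log2 scale) at 0, 5 and 10 d of culture for the 4 genes (coloured points), with boxes for all rows with a Ct in either genotype. Boxes give the median and quartiles, whiskers run from the 5th to the 95th percentile, dotted lines mark 2-fold, and all 12 points lie below 0, of which TEM1 at 10 d lay above 0 in raw Ct.

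The 10 d comparison was the one most open to the scaling. The first block as a whole was higher in Col-0 than in tanmei by 0.91 at that time, against -0.08 at 5 d and -1.21 at 0 d. In raw Ct at 10 d RAV1 differed by -1.12, TEM2 by -0.87, EDF3 by -0.50 and TEM1 by 0.35, so that 1 gene was past 2-fold, beside 15.5% of all rows lower by 2-fold in raw Ct and 37.6% higher. At 0 d, where 44.5% of all rows were lower by 2-fold in raw Ct and 11.9% higher, all 4 genes were lower by more than 2-fold, TEM2 with a raw difference of -1.97. Neither the block median nor raw Ct replaces the ubiquitin reference of the study's methods, which was not used here to scale the levels. The listed profiles served for the check of codes alone.

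The resemblance of the 4 profiles was described by the root mean square difference over the 6 groups, after each profile was centred on its own mean. TEM2 and RAV1 were the closest pair at 0.82, followed by TEM1 and TEM2 at 1.12 and by EDF3 and RAV1 at 1.24. TEM1 and EDF3 were furthest apart at 2.39. The 2 floral repressors therefore lay less close to each other than TEM2 did to RAV1. These distances summarise 6 groups with 1 mean each.

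Among 1395 rows with a Ct below 35 in every group, the row most like TEM2 was AT1G79700 (WRI4, an AP2 factor of fatty acid and cutin biosynthesis) at 0.30. WRI4 had a Ct of 28.12, 26.27 and 24.75 in Col-0 and 26.37, 23.03 and 23.61 in tanmei, with the same high pair of cultured mutant samples, and its code carried its listed profile. The rows next to the other 3 genes had codes that either had no listed profile or carried another, so the codes are given without gene names. For TEM1 they were AT2G40970 (0.23), AT5G39860 (0.25) and AT5G45980 (0.31), and for EDF3 AT1G68130 (0.34), AT1G68360 (0.41) and AT4G03250 (0.81). For RAV1 they were AT5G04390 (0.31), AT5G06110 (0.41) and AT5G08520 (0.49), and the remaining rows for TEM2 were AT1G20700 (0.31) and AT1G47860 (0.48).

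Of genes tied to the family by structure or pathway, few had codes that could be checked. The 2 further AP2/B3 genes listed were near the detection limit in Col-0, and neither had a listed profile. AT1G50680 was listed at a Ct of 40 in Col-0 at 0 and 5 d and at 36.35 at 10 d, whereas in tanmei its Ct was 35.29, 32.49 and 33.14. RAV3 (AT1G51120) ran the other way, with a Ct of 37.89, 37.61 and 36.34 in Col-0 and none in tanmei.

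ERF1, an ethylene response factor directly downstream of EIN3, had a Ct of 31.27, 28.71 and 25.75 in Col-0 and of 24.94, 26.95 and 24.07 in tanmei. Like EDF3 and RAV1 it was higher in cultured than in uncultured Col-0 explants, by 1.50 at 5 d and 3.63 at 10 d. It was also lower in Col-0 than in tanmei, with differences of -1.67 at 5 d and -2.59 at 10 d. In tanmei, however, ERF1 differed from 0 d by -1.94 at 5 d, where EDF3 (1.92) and RAV1 (2.81) were higher. At 10 d in tanmei ERF1 differed from 0 d by 1.09, though by less than 2-fold in raw Ct. The study, scaling to ubiquitin, also listed this gene as higher in Col-0 at 5 d, but as steadily expressed in tanmei. In the list of ERF1 and the EIN3 family, 3 of 4 rows with a Ct were higher by 2-fold and 1 was lower in Col-0 at 5 d, where 28.9% of all rows were higher and 38% lower, but only the code of ERF1 could be checked.

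Of the floral timing regulators 2 had checked codes. SNZ, an AP2 repressor of flowering, had a Ct of 23.49, 28.75 and 28.96 in Col-0 and 28.38, 30.33 and 33.17 in tanmei, and was lower in cultured Col-0 explants (-6.33 at 5 d, -7.36 at 10 d). Its relative TOE1 had a Ct of 25.30, 23.35 and 22.00 in Col-0. The centred level of TOE1 there differed from 0 d by 0.89 at 5 d and 1.40 at 10 d, and in raw Ct both changes were past 2-fold. At 5 d in Col-0 2 of 8 rows of the list with a Ct were higher by 2-fold and 2 lower, near or below the shares of all rows just given, and 3 of the 9 codes carried another profile. SMZ, which had no listed profile, was listed at a Ct of 40 or without one in every group.

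ABI3, ABI4 and ABI5 were listed as regulators of abscisic acid responses. ABI3, a B3 regulator of seed maturation, had a Ct of 18.08, 18.80 and 19.56 in Col-0 and of 19.29, 25.67 and 31.03 in tanmei. At 5 d its level differed from that at 0 d by -1.79 in Col-0, though by less than 2-fold in raw Ct, and by -6.32 in tanmei. Its Col-0 minus tanmei difference at 5 d was 6.95, opposite in sign to that of all 4 TEMPRANILLO and RAV genes. ABI4, an AP2 factor without a listed profile, had a Ct of 22.33, 21.60 and 21.65 in Col-0 and of 20.34, 24.80 and 28.33 in tanmei, and it too was higher in Col-0 at 5 d (3.28) and at 10 d (5.77). The study, however, listed ABI4 among genes expressed in explants of Col-0 and not of tanmei. The row under its code had the lower Ct in tanmei at 0 d, so that code remained in doubt. In Col-0 at 10 d against 0 d ABI4 differed by -1.21 after centring but by less than 2-fold and with the other sign in raw Ct. Of the 3 genes of this list 2 were higher in Col-0 than in tanmei by 2-fold at 5 d, where 22.1% of all rows were.

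The labelled tissue was set against 6 embryo regulators, of which ABI3 alone had a code that could be checked. At 5 d 4 of the 6 were higher by 2-fold in Col-0 than in tanmei and 1 was lower, where 22.1% of all rows were higher and 24.1% lower. BBM, an AP2 factor that promotes somatic embryos, had a Ct of 33.44, 32.39 and 31.79 in Col-0 and of 33.75, 34.86 and 34.23 in tanmei. It was higher in Col-0 than in tanmei by 2.55 at 5 d and 1.53 at 10 d. Within Col-0 its centred level differed from that at 0 d by -0.01 at 5 d and -0.25 at 10 d, but in raw Ct it was higher by more than 2-fold at both times.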

How the data were processed

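The deposited values were Ct scores from qRT-PCR with SYBR Green, which the authors had averaged over 3 replicates per gene and group. Per the file headers they were not normalized. The labels give 1 sample per group, and the paper describes its 3 replicates of each group as independent biological ones. The authors normalized to ubiquitin in their own comparisons; a deposited table of such fold changes was not used. Rows with no Ct were set to 40. From the 1880 rows (1872 codes, 5 equal blocks) the block median Ct minus the Ct was computed for each group, with 9 comparisons between groups (Python 3.11.15, numpy 2.4.6, pandas 2.3.3, scipy 1.17.1). The calculation was tested on simulated data. With 1 mean per group no test was made.

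The 4 genes and the related lists were chosen with earlier results of these data known. The rule named all 4 genes, the 3 rows most like each, and list members past 2-fold in Col-0 at 5 or 10 d against 0 d or between genotypes at those times. List members whose codes carried another profile, or had no listed profile and lay outside the AP2/EREBP family, were counted and not given values. LEC1, LEC2, FUS3 and WOX2, listed with ABI3 and BBM as embryo regulators, were among these. Alternatives were raw Ct, the median of all rows, the block median over rows with a Ct below 35, the block mean and, chosen after seeing the data, the block median of deviations from each row's own mean. Taking for each gene the row closest to its listed profile gave the same 4 rows.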

Additional observations from a re-analysis of the deposited data

Results flagged for a closer look

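In 3 cases a gene moved one way in Col-0 and the other way in tanmei, under each of the 6 centrings. Over 10 d of culture the TEM1 level differed from its start by 0.88 in wild-type explants, against -0.88 in the mutant. Between 5 and 10 d the wild-type and mutant differences were 0.93 and -0.26 for TEM1, and 0.05 and -0.42 for RAV1. With the block median each of these changes was less than 2-fold. With 1 mean per group the difference was not tested.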

How the results depend on the processing

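The 36 changes of the 4 genes (9 comparisons each) were recomputed under 5 other settings: none past 2-fold changed sign, 3 smaller ones took the other sign under some setting and 9 crossed the 2-fold limit under some setting. In raw Ct the number of the 4 genes past 2-fold was 4 in place of 2 for Col-0 at 5 d against 0 d, 3 in place of 1 for Col-0 at 10 d against 5 d, and 1 in place of 3 for Col-0 against tanmei at 10 d. For Col-0 at 10 d against 5 d it was 3 with the median of all rows, and 2 with the median of rows with a Ct below 35, with the block mean and with the median of deviations. The level of TEM1 in Col-0 at 0 d, 1.03 above the block median, was -0.068 against the median of rows with a Ct below 35. The number of all rows past 2-fold in either direction stayed within 1.5 times under the settings run. In the direction that the text gives, it moved further in raw Ct in 3 comparisons: 529 in place of 315 rows higher in Col-0 at 10 d against 5 d, and 801 in place of 443 at 0 d and 283 in place of 524 at 10 d lower in Col-0 than in tanmei. The rows whose change differed by 2-fold between genotypes also moved, at 10 d from 501 greater in Col-0 and 560 in tanmei to 1142 and 224. A level is relative to its block and cannot be had from raw Ct. Ct values near 40 leave low levels without order. No paired analysis was possible because each group had 1 deposited mean.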
